A study of Mus musculus with 12 samples.

Results

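The comparison described here sets gastrocnemius muscle from mice given adenovirus for 2 short hairpin RNAs (shRNAs), one against TSC22D4 and one against LCN13, beside gastrocnemius from mice given control shRNA virus. Its members are the 3 arrays labelled with both shRNAs (animals 29, 30 and 32) and the 3 arrays labelled with negative-control shRNA (animals 18, 19 and 20), which makes 6 of the 12 arrays in the series. All mice carried the BKS.Cg-Dock7m +/+ Leprdb/J background, in which the leptin receptor is not functional and the animals become obese and diabetic, and all were 12 weeks old. Control mice received 4e9 plaque-forming units of control virus, and the mice with both shRNAs received 2e9 of TSC22D4 virus and 2e9 of LCN13 virus, with no control virus. The single-virus groups (3 arrays each) received 2e9 units of 1 target virus and 2e9 of control virus, so that every group carried the same total amount of virus. The amount of control virus was not equal, however, and went from 4e9 in control mice to 0 in mice with both shRNAs. Between these 2 groups, the presence of the target shRNAs and the absence of control virus cannot be told apart. Muscle was taken 1 week after the virus. From 7 treated animals a group, 3 described as representative were placed on arrays, and how they were picked is not stated, so these 3 need not span the range of the 7. Which organs took up the virus is likewise not stated. Below, arrays labelled with both shRNAs are called double-shRNA arrays, and a change is the mean log2 level of those arrays minus that of the control arrays.

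TSC22D4 belongs to the TSC22 family of leucine zipper proteins, which regulate transcription. LCN13 is a lipocalin, a small secreted carrier protein, and acts on glucose metabolism. Interferons are secreted antiviral signals. A cell that senses viral nucleic acid through receptors such as Ifih1 and Ddx58 (MDA5 and RIG-I) makes interferon, and interferon acts through transcription factors such as STAT2 and IRF9 to switch on effector genes that block viral replication. The promoters of many of these effector genes hold a short response element to which STAT2 and IRF9 are recruited. Skeletal muscle fibres are surrounded by fibroblasts, endothelial cells, macrophages, mast cells and tendon sheets, and a whole-muscle RNA sample holds transcripts of all of them.

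The targeted transcripts were examined first. Tsc22d4 measured 6.54, 6.43 and 6.79 on the log2 scale in the control arrays and 7.01, 6.72 and 6.71 in the double-shRNA arrays. The groups overlapped, and the change of 0.23 did not pass the test (SE 0.121, limma adjusted p = 0.337). Lcn13, listed under its current symbol Obp2a, measured 4.91, 4.96 and 4.91 in control and 4.91, 4.93 and 4.96 in double-shRNA arrays, close to the lowest value in the table, 4.78. Tsc22d4 was thus not lower in the double-shRNA arrays, and its change in TSC22D4 arrays was 0.24 (SE 0.121, limma adjusted p = 0.619). For Obp2a, near the floor, a lower level could not be seen, and the labels are used as group names. The other measured members of the TSC22 family and its partners also did not pass (0 of 14, median change -0.093), nor did any of 19 lipocalins (median change -0.014).

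The deposited log2 levels of 23185 named genes were tested with limma over all 12 arrays, and a gene is said to rise or fall where its Benjamini-Hochberg adjusted p was below 0.05. Of these genes 1007 passed, which is 4.34% of those tested, with 399 higher (1.72%) and 608 lower (2.62%). The counts of called members in the lists below are to be read against these shares. The change of the typical gene was near 0 (median -0.005, median absolute change 0.0519). In 23.7% of all genes the 3 control and 3 double-shRNA levels did not overlap (9.48% higher, 14.3% lower), and all 1007 called genes were among these. At an unadjusted p below 0.05 there were 4738 genes (20.4%). Markers of skeletal muscle checked the labelled tissue. Their summed linear level, over 14 genes such as Acta1, Ckm and Myh4, lay between 170774 and 173520 in control arrays and between 168374 and 171125 in double-shRNA arrays. Correlations between a control and a double-shRNA array lay between 0.990 and 0.994 over all genes. The double-shRNA arrays were less alike among themselves (r from 0.994 to 0.996) than the control arrays (0.996 to 0.998), and limma gave animals 29 and 30 the lowest weights of the 12 (0.607 and 0.590). The number of called genes differed with the animal left out. It was 334 without control animal 20, 478 without control animal 18 and 531 without control animal 19. Without double-shRNA animals 29, 30 and 32, left out singly, it was 866, 933 and 470. With these 6 arrays alone it was 124.

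**Figure D1:**
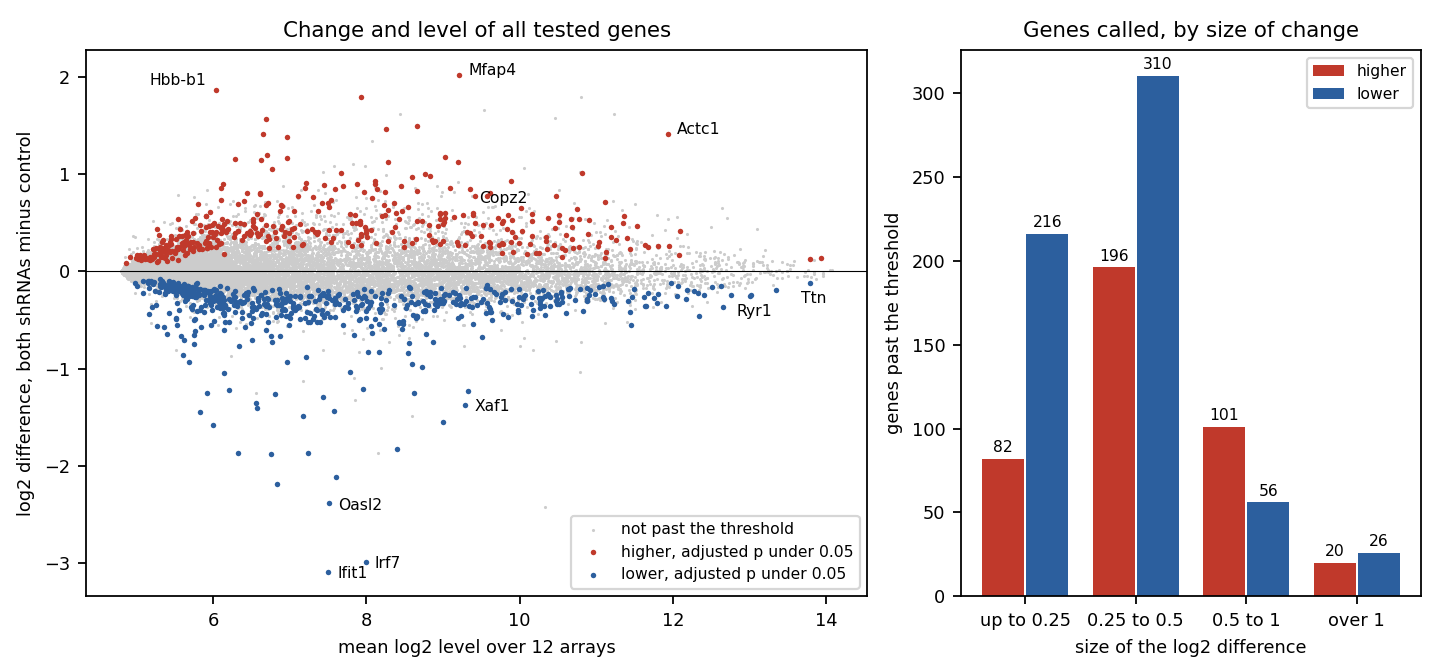
Left, the log2 difference between double-shRNA and control arrays against the mean log2 level over 12 arrays, 1 point a gene, with genes past an adjusted p of 0.05 in colour (red higher, blue lower). Right, the number of genes past that threshold by the size of the log2 difference. Ifit1, Irf7 and Oasl2 lie lowest of the genes past the threshold, and most called genes changed by under 0.5, with 298 of them changed by up to 0.25.

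The falls were led by interferon-induced genes, and the promoters of several of them carry the interferon-stimulated response element. Its core, searched on both strands as 2 copies of GAAA with any 2 bases between them, was found in 8 of the 19 genes lower by over 2-fold that have a promoter window here (42.1%). Across all 17452 tested genes with a window (250 bases before to 50 after the start of the gene) the share was 3.88%. Among the largest falls with this core are Ifit1 (chr19:34640639-34640938, plus strand), Rsad2 (chr12:26456403-26456702, minus strand), Ifih1 (chr2:62646206-62646505, minus strand) and Trim30a (chr7:104465144-104465443, minus strand), whose windows show where the core lies. The sequences are from RefSeq on GRCm38.p6, written 5′ to 3′ on the strand of the gene, with each match to the core in capitals.
Ifit1: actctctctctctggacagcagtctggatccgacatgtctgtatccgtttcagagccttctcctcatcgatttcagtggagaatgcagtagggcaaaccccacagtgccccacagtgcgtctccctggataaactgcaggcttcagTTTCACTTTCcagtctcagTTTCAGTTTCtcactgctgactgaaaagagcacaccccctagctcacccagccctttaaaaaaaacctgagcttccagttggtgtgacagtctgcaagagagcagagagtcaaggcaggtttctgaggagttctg
Rsad2: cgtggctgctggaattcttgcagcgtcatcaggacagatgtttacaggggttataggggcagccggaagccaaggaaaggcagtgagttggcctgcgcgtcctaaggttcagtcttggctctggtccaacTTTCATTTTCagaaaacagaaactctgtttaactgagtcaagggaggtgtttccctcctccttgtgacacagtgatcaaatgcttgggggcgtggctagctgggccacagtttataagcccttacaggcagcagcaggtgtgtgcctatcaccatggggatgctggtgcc
Ifih1: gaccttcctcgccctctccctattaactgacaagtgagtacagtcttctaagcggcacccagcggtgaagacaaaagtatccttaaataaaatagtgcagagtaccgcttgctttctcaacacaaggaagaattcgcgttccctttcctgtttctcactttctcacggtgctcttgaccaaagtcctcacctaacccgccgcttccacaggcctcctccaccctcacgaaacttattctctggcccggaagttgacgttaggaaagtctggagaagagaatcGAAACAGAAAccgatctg
Trim30a: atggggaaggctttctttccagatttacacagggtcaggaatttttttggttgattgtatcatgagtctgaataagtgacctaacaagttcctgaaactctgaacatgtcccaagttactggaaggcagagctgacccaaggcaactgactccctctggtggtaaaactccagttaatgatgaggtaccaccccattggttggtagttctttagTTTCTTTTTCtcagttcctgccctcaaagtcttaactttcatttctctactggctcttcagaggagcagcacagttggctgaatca
Ifit1 holds 2 matches, which begin 104 and 85 bases before its start. The single matches in the windows printed for Rsad2 and Trim30a begin 120 and 36 bases before the start, and that of Ifih1 begins 32 bases after it. A further window of Trim30a (chr7:104446076-104446375, minus strand), not printed, holds 1 match that begins 2 bases after its start. The windows of Irf7, Oasl2, Cmpk2, Ifit2 and Herc6 hold no match, although all 5 genes fell by more than 3-fold. Of all genes called lower with a window, 40 of 461 (8.68%) held the core, against 12 of 305 (3.93%) of those called higher. Among genes lower by under 2-fold that are in none of the interferon or antigen lists it was 24 of 425 (5.65%). The E-box CACGTG was in 9.33% of windows of genes called lower, in 9.84% of those called higher and in 9.19% of all, and the MEF2 core (CTA and TAG with any 4 bases between them) in 4.56%, 4.59% and 4.22%. Among the 19 genes lower by over 2-fold, 0 held the E-box and 2 (10.5%) the MEF2 core.

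Most interferon effector genes fell. Of 42 measured, 31 were called lower and 1 higher, while 10 missed the threshold, and their median change was -0.59 against -0.005 over all genes. Levels did not overlap between the groups in 38 members that were lower and 1 that was higher. Usp18, a protease that removes ISG15 and damps interferon signalling, measured 8.70, 7.40 and 8.25 in control and 6.20, 6.34 and 6.19 in double-shRNA arrays. All 3 double-shRNA arrays lay below the lowest control array, a 3.66-fold fall (change -1.87, SE 0.251, limma adjusted p = 0.00594). Rsad2, or viperin, which makes a chain-terminating nucleotide, measured 10.57, 9.67 and 10.61 in control and 8.55, 9.00 and 8.66 in double-shRNA arrays, a 2.92-fold fall (adjusted p = 0.0186). Control animal 19 was the lowest control array for both genes. Xaf1, a pro-apoptotic zinc finger protein, fell from 10.22, 10.24 and 10.29 to 8.87, 9.12 and 8.64 (2.58-fold, adjusted p = 0.00128). Trim30a, a ubiquitin ligase, fell from 7.17, 6.39 and 7.08 to 5.34, 5.58 and 5.39 (2.72-fold, adjusted p = 0.00438). The mono-ADP-ribosyltransferase Parp14, the chaperone of odorant receptors Rtp4 and the PHD finger gene Phf11d fell by 1.29, 1.35 and 1.58 on the log2 scale, and each passed in all 12 fits that left out 1 array.

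Further effectors, chosen after their values were seen, show how far the fall reached. The nucleic acid sensor Zbp1 fell by 1.22, the RNA editor Adar by 0.71, the translation-blocking kinase Eif2ak2 (PKR) by 0.61, the entry inhibitor Ifitm3 by 0.55 and the tetherin gene Bst2 by 0.55. Levels of Ifitm3 were 11.79, 11.86 and 12.03 in control and 11.34, 11.46 and 11.24 in double-shRNA arrays, so a gene at a high level fell as well as dim ones. Mx1 and Mx2, dynamin-like antiviral GTPases, fell by 0.22 and 0.56 from control levels of 5.37, 5.19 and 5.22 and of 5.71, 5.53 and 5.73. The member that rose was Ifi27, an interferon-induced mitochondrial protein, from 7.68, 7.57 and 7.72 to 8.09, 8.35 and 8.04 (change 0.50, limma adjusted p = 0.0229). Isg15, the ubiquitin-like modifier that gives its name to this response, measured 5.10, 5.10 and 5.15 in control and 5.0, 4.97 and 5.07 in double-shRNA arrays, a change of -0.11 near the lowest level of the table that did not pass (adjusted p = 0.0792). Ifit3 (change -0.32, adjusted p = 0.0734) and Slfn5 (-0.55, adjusted p = 0.0773) did not pass either. The count of falling effectors was lowest, 23, without control animal 20 and without double-shRNA animal 32, and 14 members passed with the 6 arrays alone. The mean deviation of the 42 genes from their 12-array mean was between 0.49 and 0.77 in control arrays and between -0.30 and -0.14 in double-shRNA arrays.

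**Figure D2:**
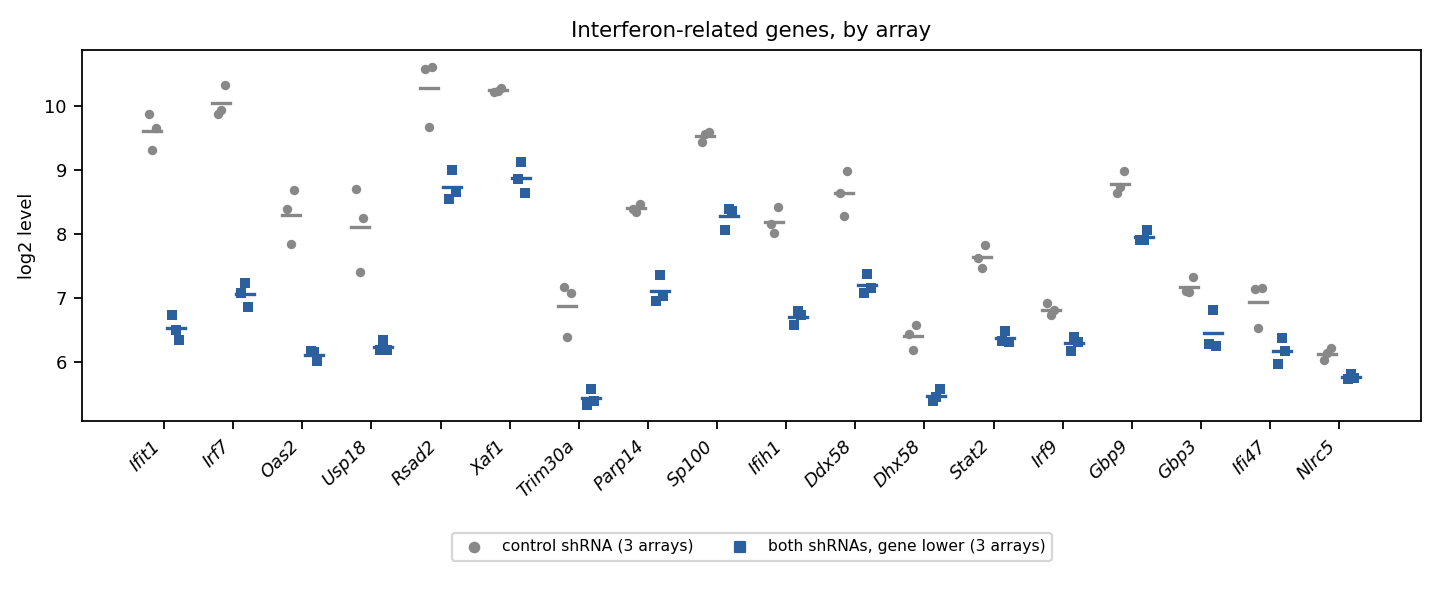
Log2 level of 18 interferon-related genes in each of the 3 control arrays (grey circles) and 3 double-shRNA arrays (blue squares), with bars at the group means. For each gene shown all blue squares lie below all grey circles, with the widest gap for Ifit1 and Irf7.

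Among sensors and transcription factors of the interferon system, 6 of 28 fell and 22 did not pass (median change -0.078). Stat2, the interferon-specific STAT, measured 7.63, 7.46 and 7.83 in control and 6.33, 6.49 and 6.32 in double-shRNA arrays, a 2.39-fold fall (SE 0.0857, limma adjusted p = 0.000147). Its partner Irf9 fell from 6.92, 6.73 and 6.81 to 6.18, 6.39 and 6.32 (change -0.53, adjusted p = 0.00912). The RNA helicases Ddx58 (RIG-I) and Dhx58 (LGP2) fell by 1.43 and 0.93 on the log2 scale. These sensors and factors are themselves interferon-induced genes, and Stat2, Irf9, Irf7, Ifih1, Ddx58 and Dhx58 each passed in all 12 fits that left out 1 array. By contrast Irf2, a constitutive antagonist of interferon responses, had a change of -0.30 (adjusted p = 0.0953) and the kinase Tbk1, which activates IRF3, of -0.20 (adjusted p = 0.131), and neither passed. Sp100, a nuclear body protein, and Znfx1, an RNA helicase, are outside these lists and fell by 1.25 and 1.04.

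Of 12 interferon-inducible GTPases, which act on membranes around intracellular pathogens, 4 were called lower and none higher, and the median change was -0.40. This count was between 1 and 5 in the fits that left out 1 array. Gbp9 measured 8.65, 8.74 and 8.98 in control and 7.91, 7.91 and 8.07 in double-shRNA arrays (change -0.83, SE 0.0886, limma adjusted p = 0.0022). Gbp3, Gbp7 and Ifi47 fell by 0.73, 0.54 and 0.77, and Irgm1 (-0.56, adjusted p = 0.0983) did not pass. Against 2.62% of all genes, 1 of 27 antigen presentation genes fell (median change -0.13). It was Nlrc5, the activator of class I genes, at 6.03, 6.15 and 6.23 in control and 5.74, 5.81 and 5.75 in double-shRNA arrays (adjusted p = 0.00782). H2-T24, a class I-like gene outside that list, fell from 7.53, 7.38 and 7.89 to 6.21, 6.27 and 6.12 (2.64-fold). H2-T23, the mouse Qa-1 gene, had a change of -1.25 but control levels as far apart as 6.75 and 7.93, and did not pass (adjusted p = 0.0504). The peptide transporter Tap1 had a change of -0.37 and did not pass (adjusted p = 0.0892).

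The values with 1 target virus, which share the control arrays, stand beside these as a description. Against control, 78 genes (0.336%) passed with TSC22D4 virus and 197 (0.85%) with LCN13 virus. Irf7 averaged 10.05 in control, 7.47 with LCN13 virus, 7.40 with TSC22D4 virus and 7.06 with both. Herc6 averaged 8.59, 6.84, 6.81 and 6.72 in the same order, and Stat2 7.64, 6.50, 6.68 and 6.38. A direct test of double-shRNA against TSC22D4 arrays with limma called 0 of 23185 genes (0.0%). At an unadjusted p below 0.05 there were 2434, and the smallest adjusted p was 0.0788. For Ifit1 that difference was -0.12 (SE 0.175, adjusted p = 0.855) and for Irf7 -0.34 (SE 0.196, adjusted p = 0.595). Against LCN13 arrays 977 genes (4.21%) passed, 305 higher (1.32%) and 672 lower (2.9%). That count was 318 without LCN13 animal 21, 567 without LCN13 animal 22, 563 without LCN13 animal 23, 468 without double-shRNA animal 29, 391 without double-shRNA animal 32, and 0 when limma was given those 6 arrays alone. It included Oasl2, an oligoadenylate synthetase-like protein (difference -0.71, adjusted p = 0.0186), Copz2 (0.33, adjusted p = 0.00633), Actc1 (1.12, adjusted p = 0.0114) and Hbb-b1 (1.98, adjusted p = 0.029). For Ifit1 the difference from LCN13 arrays was -0.69 (SE 0.175, adjusted p = 0.0585).

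The interaction asked whether the change with both viruses departed from the sum of the 2 single changes. It passed for 29 genes (0.125%), 24 of them above 0 (0.104%) and 5 below (0.0216%). For Ifit1, which changed by -2.96 with TSC22D4 virus, -2.40 with LCN13 virus and -3.09 with both, the interaction was 2.28 (SE 0.248, limma adjusted p = 0.0161). For Irf7 it was 2.24, for Cmpk2, a mitochondrial nucleotide kinase, 2.18, and for Herc6 1.66. In these falls the joint change was smaller than the sum of the single ones. Med13, a subunit of the Mediator kinase module, went the other way. Its change with both was -0.18, from 10.65, 10.64 and 10.67 to 10.45, 10.47 and 10.48, against -0.02 with TSC22D4 virus and 0.11 with LCN13 virus, and its interaction was -0.28 (adjusted p = 0.0229).

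Among the lists of genes, that of the extracellular matrix held the most rises. Of 39 extracellular matrix genes 9 rose and 0 fell, where 1.72% of all genes rose. Their median change was 0.44 against -0.005 over all genes, and 36 of the 39 were above 0. The mean deviation of the 39 genes from their 12-array means overlapped between the groups. It was -0.098 in control animal 19 and -0.106 in double-shRNA animal 29. Postn, or periostin, a matrix protein of tendon and repairing tissue, measured 7.63, 8.15 and 7.53 in control and 8.46, 9.77 and 9.58 in double-shRNA arrays. The groups did not overlap, with animal 29 the lowest of the 3 (2.83-fold, SE 0.316, limma adjusted p = 0.0323). Mfap4, a microfibril-associated protein, had the largest rise among genes past the threshold, from 7.53, 8.86 and 7.17 to 9.27, 10.20 and 10.16 (4.06-fold, adjusted p = 0.0393). Control animal 19 stood between the other controls and the double-shRNA arrays. When arrays were left out singly, Mfap4 kept its call in 4 of 12 fits and Postn in 7, and neither passed with the 6 arrays alone (limma adjusted p = 0.129 and 0.135). The collagens Col14a1, Col6a2 and Col6a3 rose by 0.80, 0.82 and 0.90, the collagen chaperone Serpinh1 by 0.66 and the basement membrane protein nidogen (Nid1) by 0.59. The last 3 members that rose, chosen after their values were seen, were the inhibitor of matrix proteases Timp1 (0.54), the laminin chain Lamb1 (0.43) and the collagen prolyl hydroxylase P4ha1 (0.52). Timp1, Lamb1 and Col14a1 passed in all 12 fits that left out 1 array. Fibronectin (Fn1, 1.02, adjusted p = 0.0501), Col1a1 (1.62, adjusted p = 0.0814) and Col1a2 (1.58, adjusted p = 0.0774) did not pass, with control levels of Col1a1 from 9.28 to 11.24. The number of matrix genes that rose was 3 without control animal 20 or without double-shRNA animal 32, 4 without control animal 18 or without double-shRNA animal 30, and 16 without double-shRNA animal 29.

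Of the markers of tendon and fibroblasts, 1 passed. All 12 tendon markers were above 0 (median change 0.69) and 0 passed, although 6 passed without control animal 19. Tnmd, or tenomodulin, measured 8.08, 9.32 and 7.85 in control and 9.61, 10.27 and 10.36 in double-shRNA arrays (change 1.66, limma adjusted p = 0.0541), and Chad, a cartilage and tendon leucine-rich protein, 9.13, 10.94 and 8.82 against 11.09, 11.72 and 11.46 (change 1.79, adjusted p = 0.072). The summed linear level of the tendon markers was 6672 to 13559 in control arrays and 12964 to 18687 in double-shRNA arrays, and no marker of this list lay below the level of the median gene. Of 14 fibroblast and progenitor markers 1 rose, the microfibril gene Mfap5, from 8.37, 8.59 and 8.80 to 9.41, 10.12 and 9.61 (adjusted p = 0.0254), and the list's median was 0.43, with summed levels of 20534 to 23597 and 24720 to 35286. The part of the amount of connective tissue in the samples in the rise of matrix genes was not tested. In whole muscle, more cells of a type and more RNA per cell cannot be told apart.

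**Figure D3:**
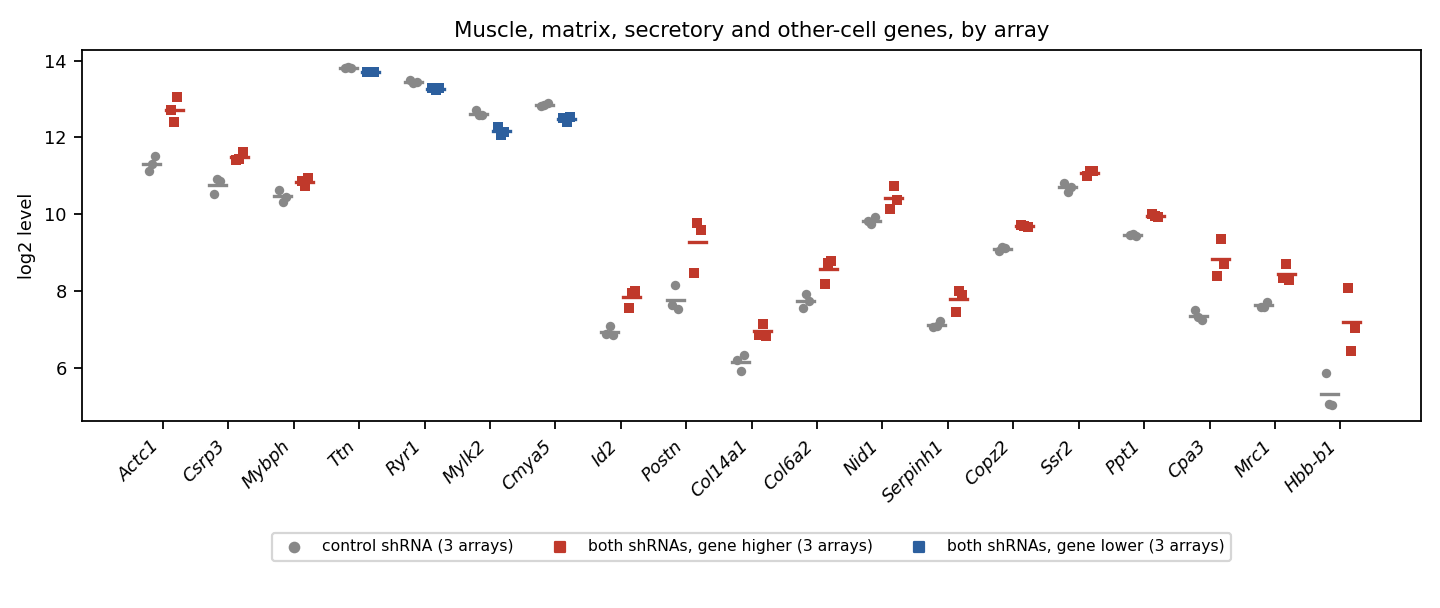
Log2 level of 19 genes of muscle, matrix, secretory pathway and other cell types in each of the 3 control arrays (grey circles) and 3 double-shRNA arrays (red squares where higher, blue where lower), with bars at the group means. The arrays of the 2 groups do not overlap for any of these genes, and the spread within a group is widest for Postn and Hbb-b1 and narrow for Ttn, Copz2 and Ppt1.

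Of 28 genes for vesicle coats and endoplasmic reticulum translocation 6 rose and 0 fell (median change 0.041). Copz2, the zeta-2 subunit of the COPI coat that returns vesicles from the Golgi apparatus, measured 9.04, 9.15 and 9.12 in control and 9.71, 9.69 and 9.66 in double-shRNA arrays. This rise of 0.59 had an SE of 0.0397, and its limma adjusted p of 0.000147 was among the 10 smallest of the comparison. Its paralogue Copz1 rose by 0.41 and the coat subunit Cope by 0.19. The translocon genes Sec61a1 and Ssr2 rose by 0.52 and 0.39, and the cargo receptor Lman1 by 0.22. Outside this list, Kdelr3, a receptor that returns chaperones to the endoplasmic reticulum, rose from 5.98, 6.08 and 6.18 to 6.82, 7.32 and 7.71 (2.30-fold, adjusted p = 0.0153), and the calcium-binding protein Rcn3 of the same compartment from 6.98, 7.32 and 7.08 to 7.70, 8.39 and 8.32 (2.01-fold, adjusted p = 0.0198). Of 33 genes of the unfolded protein and integrated stress response 1 fell, where 2.62% of all genes fell. The gene was the transcription factor Atf4 (change -0.24, from 7.54, 7.57 and 7.58 to 7.31, 7.39 and 7.26, limma adjusted p = 0.00962). The median change of the list was 0.021. The number of secretory genes called was between 2 and 5 in the fits that left out 1 array.

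Of 34 lysosome and autophagy genes 4 rose and 2 fell (median change 0.036). Ppt1, the lysosomal thioesterase that removes palmitate from proteins, measured 9.46, 9.48 and 9.43 in control and 9.99, 9.94 and 9.94 in double-shRNA arrays (change 0.50, SE 0.0391, limma adjusted p = 0.000334). Atp6v1a, the catalytic subunit of the proton pump, rose from 8.83, 8.87 and 8.76 to 9.24, 9.45 and 9.29. The beta-galactosidase Glb1 rose by 0.23 and the cathepsin Ctsa by 0.25. Ulk1, the kinase that starts autophagy, fell from 9.89, 9.76 and 9.91 to 9.47, 9.40 and 9.59, and the lysosomal membrane protein Lamp1 fell by 0.19. Ppt1, Atp6v1a and Glb1 passed in all 12 fits that left out 1 array.

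Among 24 developmental and cardiac contractile genes 3 rose and 0 fell (median change 0.063). This count of called genes was between 1 and 4 in the fits that left out 1 array. Actc1, the cardiac alpha-actin that embryonic muscle also makes, measured 11.12, 11.30 and 11.52 in control and 12.70, 12.41 and 13.06 in double-shRNA arrays, a 2.67-fold rise. Csrp3, the muscle LIM protein of the Z-disc, rose from 10.53, 10.91 and 10.87 to 11.42, 11.43 and 11.61 (change 0.72, limma adjusted p = 0.0335), and the myosin-binding protein Mybph rose by 0.38. The stretch-responsive Ankrd1 (0.72, adjusted p = 0.0921) and Ankrd2 (0.58, adjusted p = 0.101) did not pass, although their groups did not overlap. Of 22 adult fast contractile genes 3 fell and 0 rose (median -0.012). None passed without control animal 20, without double-shRNA animal 32 or with the 6 arrays alone. Only 1 passed without control animal 18, control animal 19 or double-shRNA animal 30. The giant spring protein titin (Ttn) measured 13.80, 13.83 and 13.82 in control and 13.70, 13.70 and 13.70 in double-shRNA arrays (change -0.12, SE 0.0235, adjusted p = 0.0242). The calcium release channel Ryr1 fell from 13.51, 13.41 and 13.45 to 13.29, 13.22 and 13.29, and the myosin light chain kinase Mylk2 from 12.71, 12.57 and 12.59 to 12.28, 12.07 and 12.13. Nebulin (Neb, -0.07, adjusted p = 0.0603) did not pass. Cmya5, or myospryn, a scaffold at the Z-disc, fell by 0.37, from 12.82, 12.84 and 12.89 to 12.51, 12.39 and 12.53.

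Of 19 myogenic factors only Id2, an inhibitor of basic helix-loop-helix factors such as MyoD, changed, and it rose from 6.89, 7.10 and 6.86 to 7.56, 7.94 and 8.0 (change 0.89, limma adjusted p = 0.00912). Tceal7, an X-linked gene of the elongation factor A-like family, measured 6.49, 6.09 and 6.07 in control and 7.39, 7.46 and 7.95 in double-shRNA arrays, and it was the 1 of 15 genes of its list that rose. At the neuromuscular junction 2 of 16 genes fell and 0 rose. None of the 16 passed without control animal 19, control animal 20 or double-shRNA animal 32. Agrin (Agrn), the nerve and muscle signal that clusters acetylcholine receptors, fell from 6.56, 7.00 and 6.91 to 6.24, 6.31 and 6.21 (limma adjusted p = 0.0265). Cdh15, the M-cadherin of satellite cells, fell by 0.36 and Vcam1, an adhesion molecule they share with endothelium, rose by 0.39. Casq2, the cardiac and slow calsequestrin, rose by 0.58 (adjusted p = 0.0476). In the list of muscle atrophy and FoxO targets 1 of 27 genes rose and 2 fell (median -0.092). None of the 27 passed without control animal 18, control animal 20, double-shRNA animal 30 or double-shRNA animal 32. Klf15, a glucocorticoid-induced regulator of amino acid breakdown, fell from 7.61, 7.65 and 7.67 to 7.25, 7.00 and 7.13, the F-box protein Fbxo31 fell by 0.50 and the ubiquitin ligase Cblb rose by 0.29. Ddit4, a stress-induced inhibitor of mTORC1, had a change of -1.13 but did not pass (SE 0.351, adjusted p = 0.106).

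Metabolic genes changed in few places. Complex I of the respiratory chain had 4 of 32 genes higher and 0 lower (median change 0.020), where 1.72% of all genes rose. The number higher was 1 without any 1 of the control animals or without double-shRNA animal 32. With the 6 arrays alone 0 of the 32 passed. Ndufc1 rose from 11.03, 11.18 and 11.10 to 11.48, 11.36 and 11.45 (limma adjusted p = 0.00932), and Ndufs7, at a mean level among the highest of the table, from 13.85, 13.85 and 13.87 to 14.01, 13.97 and 14.01 (change 0.14, adjusted p = 0.0214). Ndufv3 and Ndufs8 rose by 0.50 and 0.26. In complexes II to V 0 of 34 genes passed. In fatty acid uptake and oxidation 1 of 35 rose (median 0.062), against 1.72% of all genes. It was Cpt1a, the liver form of the enzyme that admits fatty acids to mitochondria, from 7.76, 7.32 and 7.76 to 8.32, 8.94 and 8.38 (change 0.93, limma adjusted p = 0.0313). Pdk3, a kinase that inhibits pyruvate dehydrogenase, rose by 0.25 at a low level (5.46, 5.44 and 5.41 against 5.66, 5.74 and 5.67), while the more abundant Pdk4 had a change of 0.44 that did not pass (adjusted p = 0.122). Elovl5, a fatty acid elongase, rose by 0.52 and was the 1 of 29 lipogenic and sterol genes to pass. The nuclear receptor partner Rxra fell by 0.33 and the mitochondrial biogenesis factor Nrf1 by 0.21, the 2 of 22 AMPK and PGC-1 genes that passed. No gene passed among 28 of glycolysis and glycogen (median -0.072), 28 of insulin signalling (median -0.062), 24 of branched-chain amino acid breakdown (median -0.080) or 18 of the circadian clock (median -0.15). Tbc1d4, or AS160, a brake on glucose transporter movement that insulin releases, had a change of -0.42 (adjusted p = 0.161).

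Of 36 cytosolic ribosome genes 4 fell and 0 rose (median change -0.053). The elongation factor Eef2 measured 13.14, 13.17 and 13.22 in control and 12.94, 12.99 and 12.88 in double-shRNA arrays (change -0.24, limma adjusted p = 0.0377), and Rpl4, Rps20 and Rpl24 fell by 0.15, 0.27 and 0.23. None of the 36 was called without control animal 18, control animal 19 or double-shRNA animal 32, and 5 were called without LCN13 animal 21. Among 45 mitochondrial ribosome genes 1 rose, against 1.72% of all genes. It was Mrps18b, from 10.43, 10.35 and 10.40 to 10.96, 10.93 and 10.91 (change 0.54, SE 0.0497, limma adjusted p = 0.000904). In the proteasome Psmd1, a base subunit, fell by 0.15 and Psmd14, the deubiquitinase of the lid, rose by 0.15, of 29 genes. The heat shock list had 1 of 20 genes higher, Hspb1, by 0.57.

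Markers of other cell types in muscle were read as lists. Of 15 macrophage markers 2 rose, the mannose receptor Mrc1 (7.60, 7.59 and 7.71 in control, 8.35, 8.69 and 8.29 in double-shRNA arrays, limma adjusted p = 0.02) and Adgre1, which encodes F4/80 (adjusted p = 0.0405). The summed level of the list was 1939 to 2012 in control and 2237 to 3959 in double-shRNA arrays, and animal 30 gave the highest value of Mrc1, Adgre1, C1qb and Cd68. Without any 1 of the 3 control animals 0 of these markers rose. Cbr2, a carbonyl reductase, and Wfdc17, a secreted inhibitor of the whey acidic protein family, rose 2.01-fold and 2.21-fold and passed in all 12 fits that left out 1 array. Of 8 mast cell markers 2 rose, the carboxypeptidase Cpa3 (7.51, 7.33 and 7.24 against 8.40, 9.36 and 8.71, 2.76-fold, adjusted p = 0.0449) and the chymase Mcpt4 (0.86), with summed levels of 454 to 479 and 693 to 1056. Neither passed without any 1 of the control animals, without double-shRNA animal 30 or without double-shRNA animal 32. The same held for fits that left out arrays outside the comparison, LCN13 animal 23 or any 1 of the TSC22D4 animals. Of 12 red blood cell markers 2 rose, Hbb-b1 and Alas2, both highest in animal 29 (8.09 and 8.23) among the double-shRNA arrays, and 0 passed without control animal 19, control animal 20 or double-shRNA animal 32. Their summed levels, 1793 to 2122 in control and 1901 to 3198 in double-shRNA arrays, overlapped, and 7 of the 12 markers lay below the level of the median gene. Slc25a37, the iron importer of mitochondria in red cell precursors, rose by 0.67 and Slc4a1, the red cell anion exchanger, had a change of 0.49 that did not pass (adjusted p = 0.0565). Tent5c, a poly(A) polymerase, rose 2.96-fold, from 6.44, 5.75 and 6.15 to 8.26, 7.32 and 7.45, and like Hbb-b1 it was highest in animal 29. Hepatocyte markers did not pass (0 of 15, median 0.055). The part of blood and immune cells in the other changes was not tested.

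**Figure D4:**
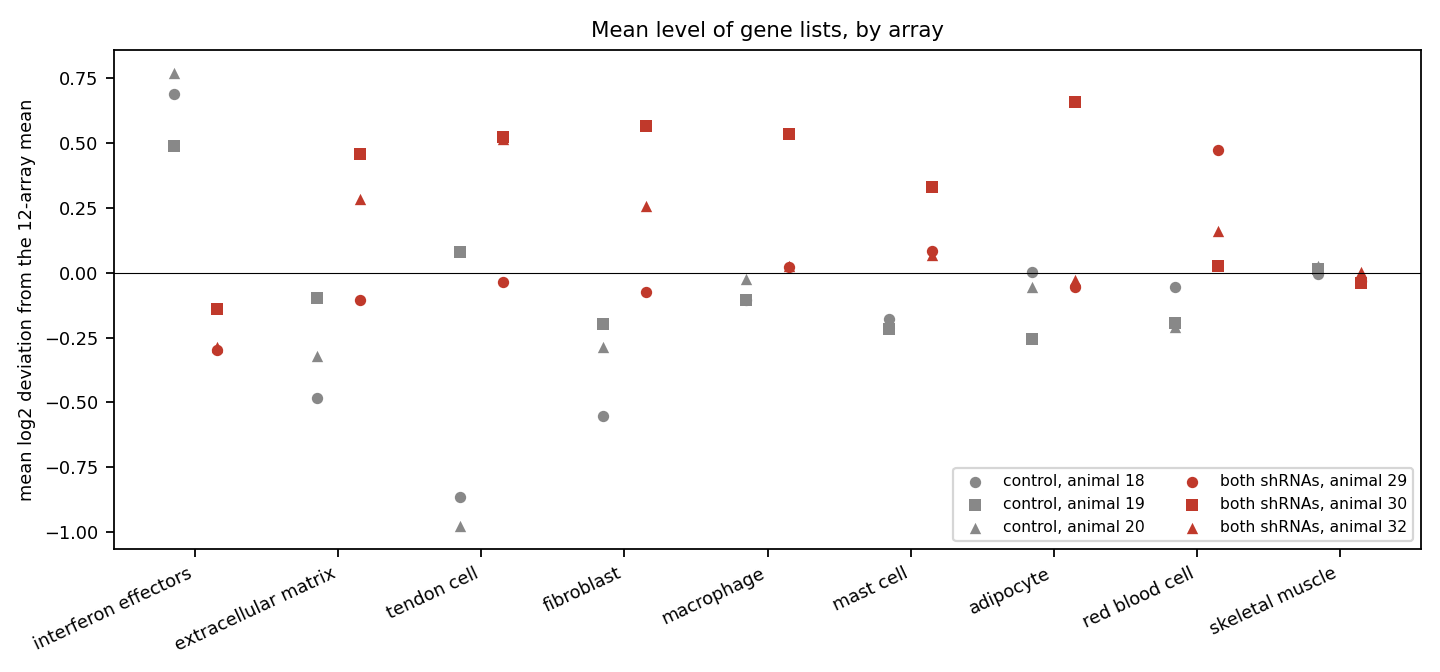
Mean log2 deviation of the genes of 9 lists from their 12-array means, 1 point an array, with control arrays in grey and double-shRNA arrays in red and marker shape by animal. Interferon effectors separate the groups without overlap. Tendon markers and matrix genes overlap through control animal 19 and double-shRNA animal 29, and adipocyte and skeletal muscle markers overlap as well. Double-shRNA animal 30 lies highest for macrophage and adipocyte markers.

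Cell cycle genes changed little. Of 39 cell cycle genes 3 rose and 0 fell, with a median change of 0.064, and 29 were above 0. Besides Mki67, Top2a, the topoisomerase of dividing cells, rose by 0.15 (5.10, 5.09 and 5.12 against 5.22, 5.31 and 5.24) and Cdkn1c, a cell cycle inhibitor, by 0.24. Cdc20 had a change of -0.24 and Cdk1 of 0.12, and neither passed (limma adjusted p = 0.0615 and 0.0685). H2ax was the 1 of 17 histone genes that rose, by 0.24. All of these lie within 1 log2 unit of the median level of an array, 5.48, and 22 of the 39 are below the level of the median gene.

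**Figure D5:**
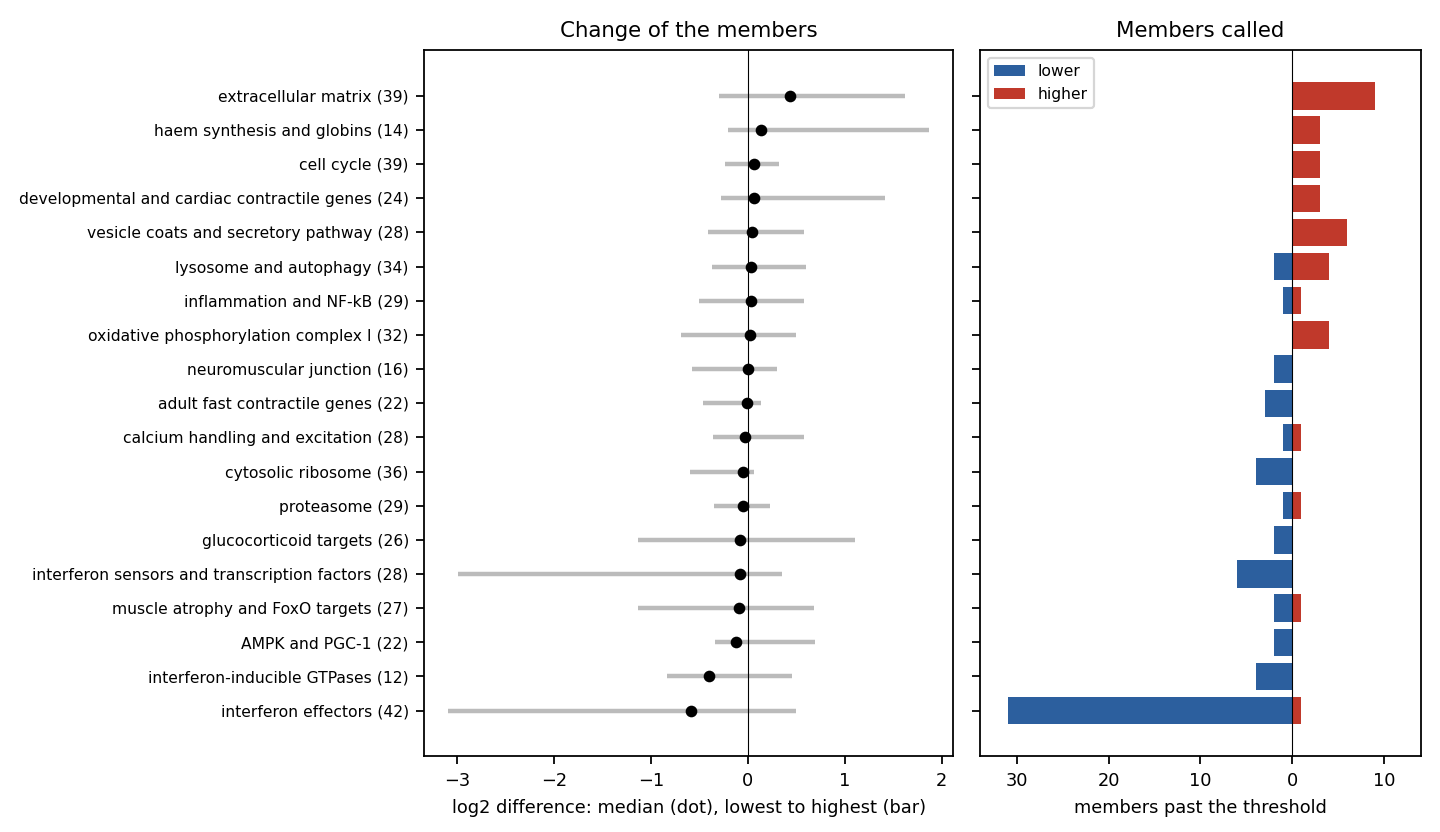
Gene lists with at least 2 members past the threshold, with the number of measured genes in brackets. Left, the median log2 difference (dot) and the range over members (bar), and right, the number of members past an adjusted p of 0.05. Interferon effectors have the lowest median and the most falls, 31, and extracellular matrix genes the highest median and the most rises, 9.

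Most called genes changed by little. Of the 1007, 278 that rose and 526 that fell changed by less than 1.41-fold, and 46 changed by more than 2-fold. The share of genes called grew with the size of the change, from 1.42% of the 20996 genes that changed by up to 0.25 to 28.7% between 0.25 and 0.5, 44.0% between 0.5 and 1 and 69.7% above 1. Falls outnumbered rises by 216 to 82 in the smallest class and by 310 to 196 in the next, and rises outnumbered falls by 101 to 56 between 0.5 and 1. The smallest changes also depended most on single arrays: 35 of 298 in the smallest class passed in all 12 fits that left out 1 array, against 141 of 506, 58 of 157 and 29 of 46 in the other classes. In all, 263 of the 1007 passed in each of these fits. With a variance trend and robust options in limma the excess of falls was not seen, with 494 genes higher and 415 lower. When limma tested for a change of over 1.2-fold in place of any change, 29 genes passed, 25 lower and 4 higher. The 4 were Actc1, Anxa5, Copz2 and, chosen after its values were seen, Ggcx, the vitamin K-dependent carboxylase of the endoplasmic reticulum (change 0.74, from 7.15, 7.11 and 7.23 to 7.94, 7.82 and 7.96). Anxa5, a calcium-dependent phospholipid-binding protein, measured 10.34, 10.16 and 10.10 in control and 11.02, 11.36 and 11.27 in double-shRNA arrays.

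Small calls lay at both ends of the level scale. The smallest fall was that of Myo15, an unconventional myosin of hair cells, from 5.33, 5.34 and 5.36 to 5.27, 5.27 and 5.25 (change -0.08, SE 0.0189, limma adjusted p = 0.0495), and the smallest rise among named genes that of the immunoglobulin segment Ighv1-66, from 4.82, 4.83 and 4.83 to 4.91, 4.92 and 4.92. Both levels are near the floor of the array, and Myo15 was lost in all 12 fits that left out 1 array. At the upper end Mss51, a muscle mitochondrial regulator, fell from 13.22, 13.12 and 12.97 to 12.84, 12.92 and 12.80, the scaffold gene Pde4dip from 12.92, 12.91 and 12.91 to 12.75, 12.55 and 12.71, and the ubiquitin ligase Kcmf1 by 0.16. Car3, the muscle carbonic anhydrase, rose from 13.71, 13.71 and 13.70 to 13.83, 13.87 and 13.79. It is also in the list of adipocyte markers, of which 1 of 11 rose (median change 0.157). Their summed linear levels, 26449 to 28381 in control and 28053 to 37459 in double-shRNA arrays, overlapped. These sums include Car3 at its high level, so they do not measure adipocytes alone. By level, with the genes in 4 classes of equal size, 0.224% were called in the lowest class, 1.6% and 7.0% in the middle classes and 8.54% in the highest. Olfactory and vomeronasal receptor genes had 5 of 1368 called (0.365%). The genes just inside the threshold were Nrf1, Hspa12a, Pbx4, Nudt5 and Mapk1ip1l, with adjusted p-values from 0.0497 to 0.0499, and those just outside it included Fn1, Eif2a, Slc35d2, Cd300lg and Tsc1 at 0.0501.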

How the data were processed

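RNA from gastrocnemius was hybridised to Affymetrix arrays, 1 animal an array. The authors deposited log2 levels made with RMA, per the submitters' processing notes. No label or file header states the RMA version or how probe sets were defined. These values were used without further normalisation. Of 25206 probe sets, 23185 matched 1 gene symbol and were tested, and 2021 (8.02%) did not. Array intensity replaces sequencing depth, so precision is limited by 3 arrays a group.

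Group means were compared with limma 3.58.1 in R 4.3.3 (lmFit and eBayes over all 12 arrays, 8 residual and 1.69 prior degrees of freedom, two-sided), with Benjamini-Hochberg adjustment over all tested genes of a comparison and a threshold of 0.05. All adjusted p-values are from limma. Simulated data for the comparison of both shRNAs with control (23185 genes, 50 at each size) were put through limma. In these data it called 42% of genes changed by 0.25, 92% at 0.5, 96% at 1 and 100% at 2, and 14 unchanged genes. Whether these values hold for the deposited arrays was not tested.

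Genes and lists were chosen with earlier results of these data known. Genes named were the targets, the 20 largest rises and falls, the 10 smallest adjusted p-values, members of each list (up to 6 past the threshold and 3 others), the smallest called changes, the highest levels, genes beside the thresholds and the leading interactions. Exceptions are marked as chosen after their values were seen, apart from Acta1, Ckm and Myh4, which only illustrate the muscle markers. Alternatives were all probe sets, genes above the median level, a variance trend with robust options, repeated quantile normalisation, median centring, array weights, the compared arrays alone, a test for over 1.2-fold, a threshold of 0.1 and each array left out. The labels give no batch.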

Additional observations from a re-analysis of the deposited data

Results flagged for a closer look

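Genes for which the change with both viruses differed from the sum of the single changes, by the interaction test of limma, numbered 29. The interaction was 2.28 for Ifit1, 2.24 for Irf7, 2.18 for Cmpk2, 1.66 for Ifit2 and 1.66 for Herc6. It was 1.40 for Phf11d, 1.36 for Oasl2, 1.33 for Parp14, 1.32 for H2-T24, 1.22 for Dtx3l, a ubiquitin ligase that pairs with PARP9, and 1.21 for Rnf213. It was 1.15 for Ifih1, 1.12 for Sp100, 1.03 for Rtp4, 1.02 for Dhx58, 0.93 for the endoplasmic reticulum ATPase Tor3a, 0.84 for Stat2, 0.84 for Gbp9 and 0.82 for Znfx1. Each of these genes had its highest group mean in the control arrays. For Med13 the interaction was -0.28. The number of genes past this test was between 3 and 50 in the fits that left out 1 array.

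Probe sets that carry no single gene symbol stand outside the comparisons. Of 2021 such probe sets 73 passed between double-shRNA and control arrays (3.61%), 15 higher and 58 lower, with changes from -3.17 to 0.88.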

How the results depend on the processing

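All 1007 genes called between double-shRNA and control arrays kept their direction in each alternative in which they were tested. Leaving out or weighting arrays could not reverse it, because the levels of the 2 groups did not overlap for any of these genes. The other alternatives used the same or nearly the same levels, so the kept direction is no test of the calls. The count was 2027 at an adjusted p under 0.1, 124 with the compared arrays alone and 29 for a change of over 1.2-fold, and ranged from 334 to 1106 with 1 array left out. It was between 785 and 1076 under the other 6 alternatives, and falls were 60.4% of calls against 45.7% with a variance trend and robust options. Double-shRNA against TSC22D4 arrays gave 0 genes, 1 at an adjusted p under 0.1 and 0 to 2 with 1 array left out. Double-shRNA against LCN13 arrays gave 977 genes, 2085 at 0.1, 543 with array weights, 0 with the compared arrays alone, 0 over 1.2-fold and 318 to 1320 with 1 array left out. The interaction gave 29 genes, 57 at 0.1, 51 above the median level, 4 over 1.2-fold and 3 to 50 with 1 array left out. For TSC22D4 against control the 78 genes became 162 at 0.1, 177 with array weights, 33 with the compared arrays alone, 25 over 1.2-fold and 36 to 105 with 1 array left out. For LCN13 against control the 197 became 425, 340, 18, 27 and 77 to 280 in the same order. The cause of these shifts was not tested, except that fewer arrays leave fewer degrees of freedom and a test for over 1.2-fold asks for larger changes. Of 151 called genes eligible to be named, 47 passed in every fit with 1 array left out. That 0 of them reversed in any setting is likewise no test of the calls. No paired analysis was possible because the animal numbers are not shared between groups.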

Other observations

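The following groups were chosen after their values were seen and are given as descriptions. Of 63 translation initiation and elongation factors 12 fell and 1 rose, with a median change of -0.077. The initiation factors Eif2s2, Eif4a2 and Eif4b were among those that fell, by 0.42, 0.50 and 0.42, and the riser was Eif5a2 (0.28). Of 10 Schlafen genes 4 fell (median -0.33), with Slfn3 lower by 0.86. Of 55 ubiquitin-specific proteases 6 fell and 0 rose (median -0.05), and of 78 genes with F-box names 7 fell and 0 rose (median -0.016). Over all tested genes 2.62% fell and 1.72% rose, and the median change was -0.005. All 3 KDEL receptors and all 3 reticulocalbins, proteins of the early secretory pathway, were above 0, and 2 of each 3 rose.

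The imprinted cluster from Dlk1 to Mirg on chromosome 12 holds long non-coding RNAs, small nucleolar RNAs and many microRNAs. Of its 62 measured genes 5 rose and 0 fell, where 1.72% of all genes rose, and the median change was 0.011. The non-coding RNA Rian measured 6.50, 6.25 and 6.39 in control and 7.07, 6.91 and 7.25 in double-shRNA arrays (change 0.70, limma adjusted p = 0.02). AF357425 rose from 6.51, 7.21 and 6.74 to 8.54, 8.46 and 8.85 (1.80, limma adjusted p = 0.00911), and DQ267102 rose by 0.57. Both lie within Rian. The remaining risers, Mir544 and Mir377, went from means of 4.87 to 5.01 and of 4.92 to 5.05, close to the lowest value in the table, 4.78. Their limma adjusted p-values were 0.0456 and 0.0481. Meg3 had a change of 0.70 that did not pass (adjusted p = 0.0774).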
